A study of Mus musculus with 4 samples.

Results

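Small RNA silencing in animal cells runs through a short chain of proteins, and the 10 genes described here encode its core. In the nucleus, Drosha, an RNase III enzyme, and its RNA-binding partner Dgcr8 form the Microprocessor, which cuts the hairpin of a microRNA out of a longer transcript. In the cytoplasm, Dicer cuts the hairpin to a short duplex, 1 strand of which is loaded into an Argonaute protein. GW182 proteins, encoded by the *Tnrc6* genes, bind Argonaute and recruit the enzymes that shorten the poly(A) tail and remove the cap of the target mRNA. Transfected siRNAs enter the same Argonaute proteins, so both groups of cells compared here had been given a substrate of this machinery. Endothelial cells depend on it for microRNAs such as miR-126, whose host gene is *Egfl7*.

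The members were taken by gene symbol: *Drosha*, *Dgcr8*, *Dicer1*, *Ago1*, *Ago2*, *Ago3*, *Ago4*, *Tnrc6a*, *Tnrc6b* and *Tnrc6c*. All 10 are among the 18373 genes of the deposited table, and all 10 are among the 13628 with enough counts to be tested. RNA was sequenced from primary liver sinusoidal endothelial cells (LSECs) of 8-week-old Balb/c mice, which had been purified by liver perfusion, a density gradient and beads against CD146, cultured for 24 h and then transfected for 48 h. The 4 libraries are labelled as day 3 LSECs, 2 given the control siRNA (NC) and 2 given an siRNA against the long non-coding RNA *Airn* (siAirn). The methods describe separate siRNAs against *Airn* while the labels of both libraries carry siAirn1, which leaves unclear which of them went into which library. The labels call the libraries biological replicates and give no animal or culture of origin, so p-values measure the spread between these libraries.

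Each library held between 17308382 and 18371959 counts. *Airn*, the targeted transcript, was counted 7 and 3 times in NC and 11 and 9 times in siAirn, too few to be tested and not lower in the libraries labelled siAirn, so every direction below is that of the libraries with that label. The endothelial markers were present in all libraries but lower in siAirn: of 14 LSEC markers 12 passed the test as lower, with summed levels of 4776 to 4857 CPM (counts scaled to library size) in NC and 3222 to 3589 in siAirn, and of 13 pan-endothelial markers 10 did (10910 to 11450 against 7111 to 8138). Of 13 macrophage markers tested all 13 had fitted values below 0 and 7 passed the test as lower, beside 8.56% of all genes. The sum of all 15 listed was 252.5 to 320.1 CPM in NC and 163.4 to 195.7 in siAirn. Of 14 stellate cell and fibroblast markers 13 had fitted values above 0 and 4 passed as higher (1799 to 2176 against 2094 to 2709). Of 13 hepatocyte markers tested 12 had fitted values above 0 (median log2 fold change 0.39). *Fga*, with 4 and 5 counts in NC and 15 and 14 in siAirn, had enough counts only in siAirn, which helped to fix its sign. Of the 13 markers 1 passed as higher, a share below the 8.27% of all genes called higher. Most of the summed level of all 15 listed (629.4 to 800.1 against 871.2 to 1137) was that of *Alb*, which was not called (adjusted p = 0.0598 by edgeR). Of 11 listed lymphocyte markers only 3 had enough counts to be tested. All 3 had fitted values above 0 and none passed. *Cd79b*, with 6 and 2 counts in NC and 20 and 16 in siAirn, had enough only in siAirn, which helped to fix its sign. The sum of all 11 was 4.09 to 4.55 CPM in NC and 6.36 to 6.67 in siAirn. None of the listed markers, tested or not, was at 0 in all libraries. The part of these marker values in the results below was not tested, and in such bulk RNA fewer cells of a type and less RNA per cell cannot be told apart.

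The genes lie at 8 separate places in the mouse genome (GRCm38, GENCODE M21 annotation). *Ago3* (chr4:126331704-126429556), *Ago1* (chr4:126435012-126468583) and *Ago4* (chr4:126489541-126533472) stand side by side on the minus strand, with pseudogenes as the only other annotated genes in their span of 201769 bases. *Ago2* stands apart (chr15:73095844-73184935, minus strand), as do *Drosha* (chr15:12824815-12935291, plus), *Dgcr8* (chr16:18253948-18289246, minus), *Dicer1* (chr12:104687742-104751952, minus), *Tnrc6a* (chr7:123123885-123195296, plus), *Tnrc6b* (chr15:80711313-80941085, plus) and *Tnrc6c* (chr11:117654289-117763439, plus).

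In edgeR's quasi-likelihood fit of all libraries, before correction for GC content and length, *Dgcr8* had the largest fitted change of the 10 genes. It carries microRNA hairpins in its own exons. Microprocessor is known to cut these hairpins, which lowers the *Dgcr8* mRNA, and Dgcr8 protein in turn steadies Drosha. The hairpin of miR-1306 (chr16:18284239-18284317) and that of miR-3618 (chr16:18284550-18284637) both lie in exon 2 of Dgcr8-201, on the strand of the gene. Their mature sequences are printed because they are sites at which the machinery is known to act on the transcript of 1 of its own genes. They are from RefSeq (GRCm38.p6), 5′ to 3′, with the seed, bases 2 to 8, in capitals.
mmu-miR-1306-3p: aCGUUGGCucugguggugaug
mmu-miR-1306-5p: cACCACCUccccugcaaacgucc
mmu-miR-3618-3p: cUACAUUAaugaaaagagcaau
mmu-miR-3618-5p: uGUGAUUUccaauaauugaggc

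No pair of these 4 shares a seed. Their own levels were not measured, since the libraries hold long RNA counted per gene. Among the other members *Tnrc6b* also carries an annotated microRNA in an exon, miR-5113 in exon 25 of Tnrc6b-201 (chr15:80940049-80940071).

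The level of a transcript relative to other genes is given as FPKM, a value scaled to transcript length and library total. In NC the order began with *Drosha* (mean 16.5 FPKM, range 15.56 to 17.5), followed by *Tnrc6a* (12.1, 11.78 to 12.43) and *Dgcr8* (11.7, 11.52 to 11.81). The ranges of *Tnrc6a* and *Dgcr8* overlap, so their order is not resolved. Next came *Ago2* (9.69), *Ago1* (9.21) and *Dicer1* (7.58), then *Tnrc6c* (4.11), *Tnrc6b* (3.60), *Ago3* (2.57) and *Ago4* (1.29), with no overlap between any of these neighbours. All 10 transcripts were thus in the middle of the transcriptome, from the 38.9th percentile of all listed genes for *Ago4* to the 71.8th for *Drosha*. In siAirn *Drosha* was again first (16.7 FPKM) and *Ago3* (3.13) and *Ago4* (1.15) last. *Dgcr8* (15.3) stood above *Tnrc6a* (14.5) without overlap, and *Dicer1* (9.98) above *Ago1* (8.63), the reverse of their order in NC. *Tnrc6b* (4.32) and *Tnrc6c* (4.26) overlapped.

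**Figure D1:**
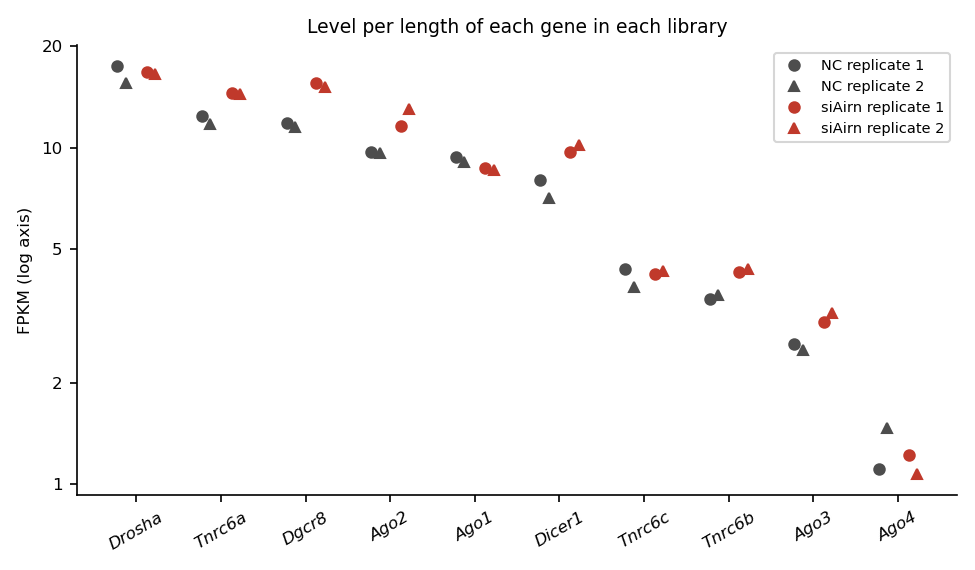
FPKM of each gene in each library on a log axis, NC in grey and siAirn in red, circles for replicate 1 and triangles for replicate 2, ordered by the NC mean. Drosha leads in both groups and Ago4 is last, and the siAirn points of Dgcr8, Ago2 and Dicer1 lie above their NC points.

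Between the groups, edgeR's quasi-likelihood test was applied to the 13628 genes that passed the filter, p-values were adjusted over all of them by Benjamini-Hochberg, and an adjusted p under 0.05 was called. Of the 10 silencing genes 3 were called, all higher in siAirn: *Dgcr8*, *Dicer1* and *Tnrc6a*. In the same fit 16.8% of all genes tested were called, 8.27% higher and 8.56% lower (1127 and 1167 genes). This split depends on the scaling, since library totals alone gave 1413 higher and 938 lower. None of the 10 passed the study's own threshold of a fold change over 1.4 with an unadjusted p under 0.05, which 9.96% of all genes passed. At an unadjusted p under 0.05 alone the count was 5 of 10 beside 34% of all genes. The groups did not overlap in CPM for 8 of the 10, 6 higher and 2 lower, beside 62.7% of all genes (30.8% higher and 31.9% lower). The median log2 fold change of the 10 was 0.19 and that of all genes tested 0.00.

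**Figure D2:**
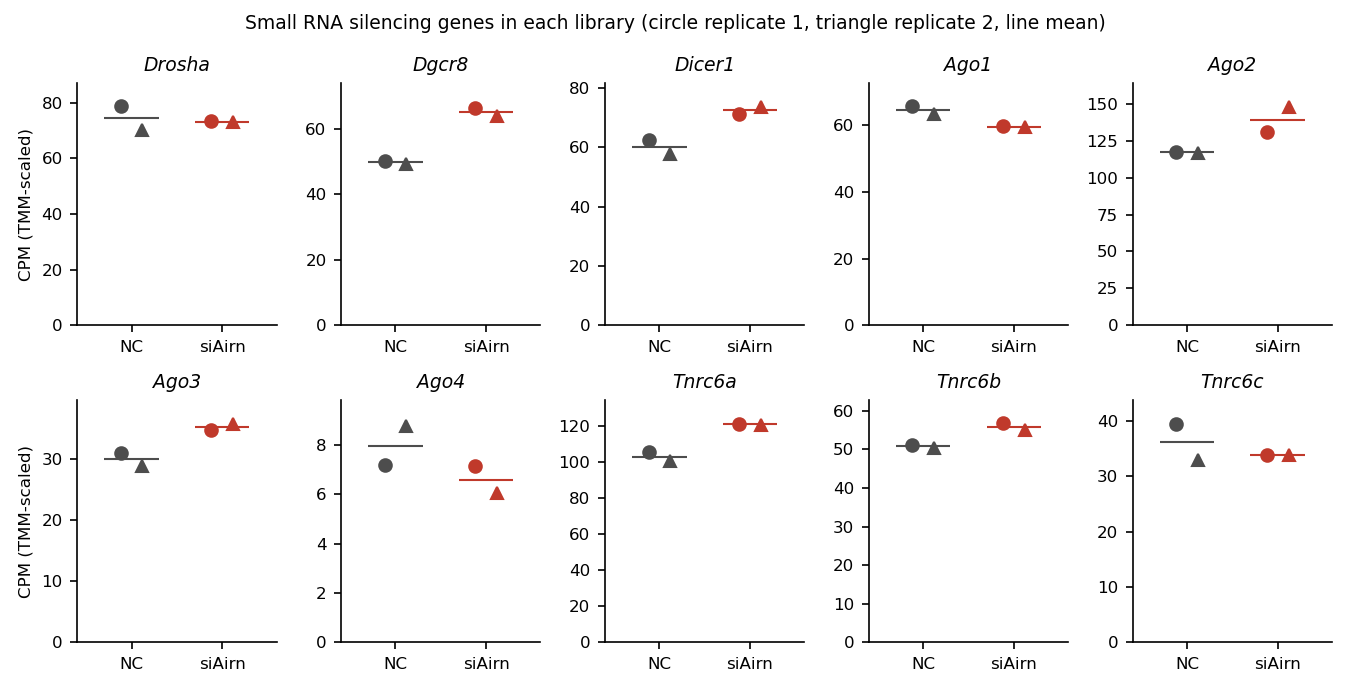
CPM scaled by TMM factors for each gene, NC in grey and siAirn in red, circles for replicate 1, triangles for replicate 2 and lines for the mean of the 2 libraries, on axes that start at 0. The siAirn libraries are clearly above NC for Dgcr8, overlap NC for Drosha and Tnrc6c, and lie just below NC for Ago4.

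The Microprocessor subunits differed from each other. *Dgcr8* had 50.3 and 49.3 CPM in NC and 66.4 and 64.0 in siAirn. Both siAirn libraries lay above both NC libraries by far more than replicates differed, and the log2 fold change was 0.39 (SE 0.07, 95% interval 0.23 to 0.55, a 1.31-fold increase, adjusted p = 0.0142 by edgeR). *Drosha*, its catalytic partner, had 78.8 and 70.3 CPM in NC and 73.4 and 73.0 in siAirn. The siAirn libraries lay within the NC range, and the log2 fold change was -0.03 (SE 0.08, interval -0.21 to 0.15, adjusted p = 0.84). In FPKM the ratio of *Dgcr8* to *Drosha* was 0.675 and 0.740 in NC and 0.929 and 0.912 in siAirn. The ratio was higher in both siAirn libraries. It is given as a description, with no test.

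The count of *Dgcr8* has a limit of annotation: 10.72% of its exonic bases lie under exons of *Trmt2a* on the opposite strand and 6.42% under annotations on its own strand, those of the hairpins and of the predicted gene *Gm49776*. The sources used here do not state whether counting used strand. *Trmt2a* itself had 40.4 and 40.4 CPM in NC and 38.3 and 30.8 in siAirn (log2 fold change -0.22, SE 0.11, adjusted p = 0.208), a fitted value opposite in sign to that of *Dgcr8*. The call of *Dgcr8* held in 15 of 18 alternative analyses, with log2 fold changes from 0.33 to 0.43. It was lost without NC replicate 1 (0.40, adjusted p = 0.0900 by edgeR), without NC replicate 2 (0.37, adjusted p = 0.122) and with limma on all genes unfiltered (0.37, adjusted p = 0.0826), in which no gene at all was called.

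*Dicer1*, the cytoplasmic RNase III enzyme, had 62.4 and 57.9 CPM in NC and 71.4 and 73.5 in siAirn. The groups were separate, with a log2 fold change of 0.27 (SE 0.07, interval 0.10 to 0.43, 1.20-fold, adjusted p = 0.0427 by edgeR). In FPKM it had 8.04 and 7.11 in NC and 9.74 and 10.21 in siAirn, a wider gap than in CPM. The transcript length implied by the deposited values was shorter in siAirn (7461 and 7260 bases) than in NC (7689 and 8020 bases). The call held in 6 of 18 alternatives and was lost when any 1 of the 4 libraries was left out (log2 fold changes from 0.21 to 0.32, adjusted p from 0.0668 to 0.219). Corrections for transcript length, described below, took the fold change itself to 0.02 with length alone and 0.01 with GC content and length. With *Drosha* as the reference, the FPKM ratio of *Dicer1* was 0.459 and 0.457 in NC and 0.581 and 0.617 in siAirn.

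Of the Argonautes, *Ago2* encodes the member of the family known for cutting fully paired targets, as those of an siRNA are, and was the most abundant in all 4 libraries. It had 117.8 and 116.6 CPM in NC and 131.1 and 147.8 in siAirn. The siAirn libraries were both above NC and far from each other, and the log2 fold change of 0.25 (SE 0.08, interval 0.07 to 0.43) had an unadjusted p of 0.0130 and an adjusted p of 0.0641 by edgeR. *Ago2* was called in 4 of 18 alternative analyses. Among them were library totals (0.29, adjusted p = 0.0413 by edgeR) and edgeR's likelihood-ratio test (0.25, adjusted p = 0.0357). Its log2 fold change was 0.34 without siAirn replicate 1 and 0.16 without siAirn replicate 2. *Ago3* had 31.0 and 29.0 CPM in NC and 34.9 and 35.7 in siAirn, also without overlap (0.24, SE 0.08, adjusted p = 0.0932 by edgeR).

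*Ago1* and *Ago4*, the neighbours of *Ago3*, had fitted changes of the opposite sign. *Ago1* had 65.8 and 63.4 CPM in NC and 59.8 and 59.5 in siAirn, a small gap with no overlap (log2 fold change -0.11, SE 0.06, interval -0.27 to 0.04, adjusted p = 0.26 by edgeR). *Ago4*, the lowest of the 10, rested on 123 and 159 counts in NC and 129 and 107 in siAirn, and its change of -0.28 had the widest interval, from -0.69 to 0.14 (adjusted p = 0.31). Without NC replicate 2 it was -0.12 and without NC replicate 1 -0.42, and it was called in neither. In FPKM the *Ago4* groups overlapped.

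Within the summed FPKM of the 4 Argonautes, *Ago2* held 42.6% and 42.6% in NC and 47.3% and 50.3% in siAirn. *Ago1* held 41.0% and 39.9% in NC and 35.4% and 33.1% in siAirn, so the near-equal shares of NC were not seen in siAirn. The FPKM ratio of *Ago2* to *Ago1* was 1.04 and 1.07 in NC and 1.34 and 1.52 in siAirn. Their count ratio, not scaled to length, was 1.79 and 1.84 in NC and 2.19 and 2.49 in siAirn. The length implied for *Ago2* was shorter in siAirn (11456 and 11447 bases) than in NC (11995 and 11884), which adds to the difference in FPKM. *Ago3* held 11.1% to 11.5% in NC and 12.4% to 12.5% in siAirn, and *Ago4* between 4.14% and 6.48% over the 4 libraries. The sum itself was 22.8 and 22.7 FPKM in NC and 24.6 and 25.9 in siAirn. These shares are levels of mRNA and were not tested.

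**Figure D3:**
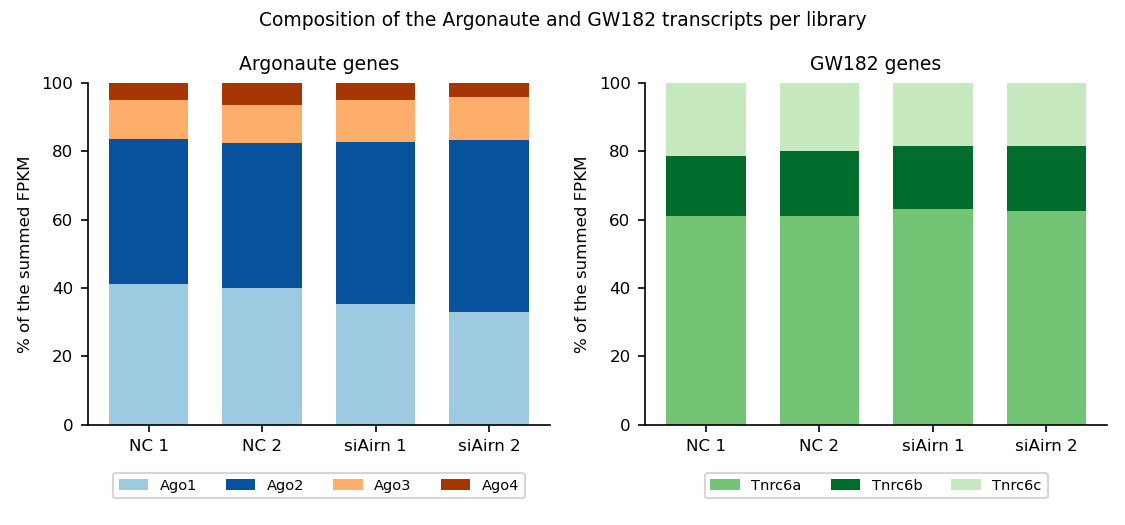
Share of each Argonaute gene (left) and each GW182 gene (right) in the summed FPKM of its family, in percent, 1 bar per library. Ago2 is at 42.6% in both NC libraries and at 47.3% and 50.3% in siAirn, and Tnrc6a lies between 61.1% and 63.1%.

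Of the GW182 genes, *Tnrc6a* was the most abundant. It had 105.7 and 100.5 CPM in NC and 121.3 and 121.0 in siAirn. The siAirn libraries were nearly equal and above both NC libraries (log2 fold change 0.23, SE 0.06, interval 0.08 to 0.38, 1.17-fold, adjusted p = 0.0476 by edgeR). The call was close to the threshold, held in 4 of 18 alternatives and was lost when any 1 library was left out (0.19 to 0.27, adjusted p from 0.112 to 0.232). With length alone corrected its fold change was 0.02. *Tnrc6b* had 51.1 and 50.4 CPM in NC and 56.7 and 55.0 in siAirn, separate groups that did not pass (0.14, SE 0.07, adjusted p = 0.196). *Tnrc6c* had 39.4 and 33.0 CPM in NC and 33.8 and 33.9 in siAirn. Its groups overlapped, its log2 fold change was -0.10 (SE 0.10, adjusted p = 0.544), and its sign turned in limma's fit of FPKM (0.04). The share of *Tnrc6a* in the family's FPKM was between 61.1% and 63.1% in every library, *Tnrc6b* held 17.5% to 18.9% and *Tnrc6c* 18.3% to 21.4%.

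**Figure D4:**
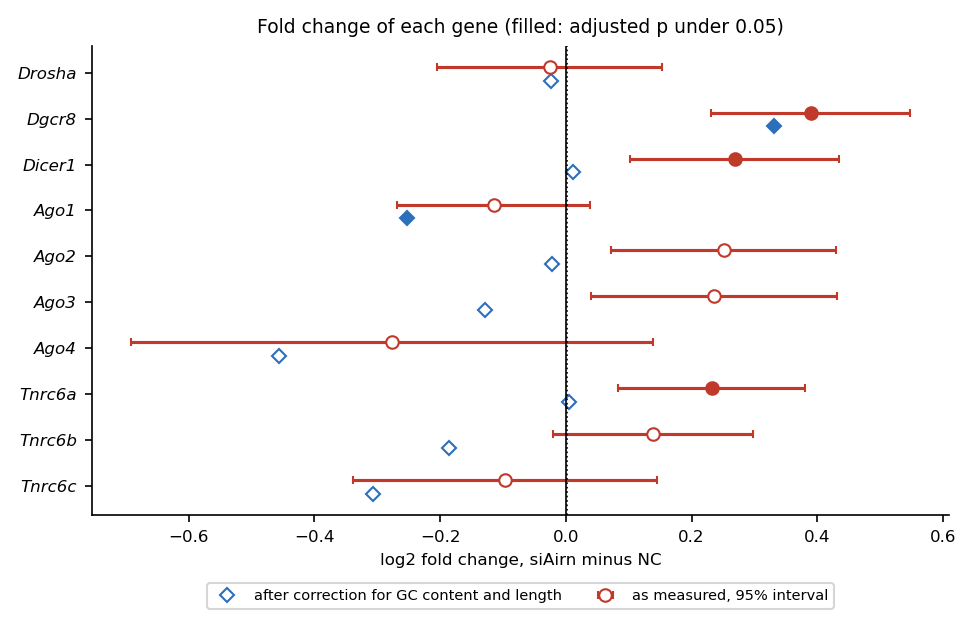
Log2 fold change of each gene, siAirn minus NC, from edgeR (red circles with 95% intervals) and after correction for GC content and transcript length (blue diamonds), filled where the adjusted p was under 0.05, with the median of all genes tested as a dotted line beside 0. Dgcr8 stays near its value, at 0.39 and 0.33, while Dicer1 and Tnrc6a move from 0.27 and 0.23 to 0.01 and 0.01.

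Most of the silencing genes have long transcripts, and across all genes the fold change moved with length. The tested genes were divided by transcript length into 5 bins of equal size. In the bin of the longest, 5288 bases or more, the median log2 fold change was 0.19, 23.4% of genes were called higher and 2.63% lower. In the bin of the shortest the median was -0.16, with 1.27% called higher and 15.3% lower. The bin of the longest holds 8 of the 10 genes, from *Ago4* (6537 bases) to *Tnrc6b* (17332 bases), and includes *Dicer1* (9851) and *Tnrc6a* (8183). *Dgcr8* (4320 bases) and *Drosha* (4570) are in the next bin, with a median of 0.06 and 9.85% called higher. GC content moved the other way, from a median of 0.15 in the bin with the least GC to -0.14 in that with the most, and the silencing genes lie between 41.8% (*Ago3*) and 52.0% GC (*Drosha*).

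**Figure D5:**
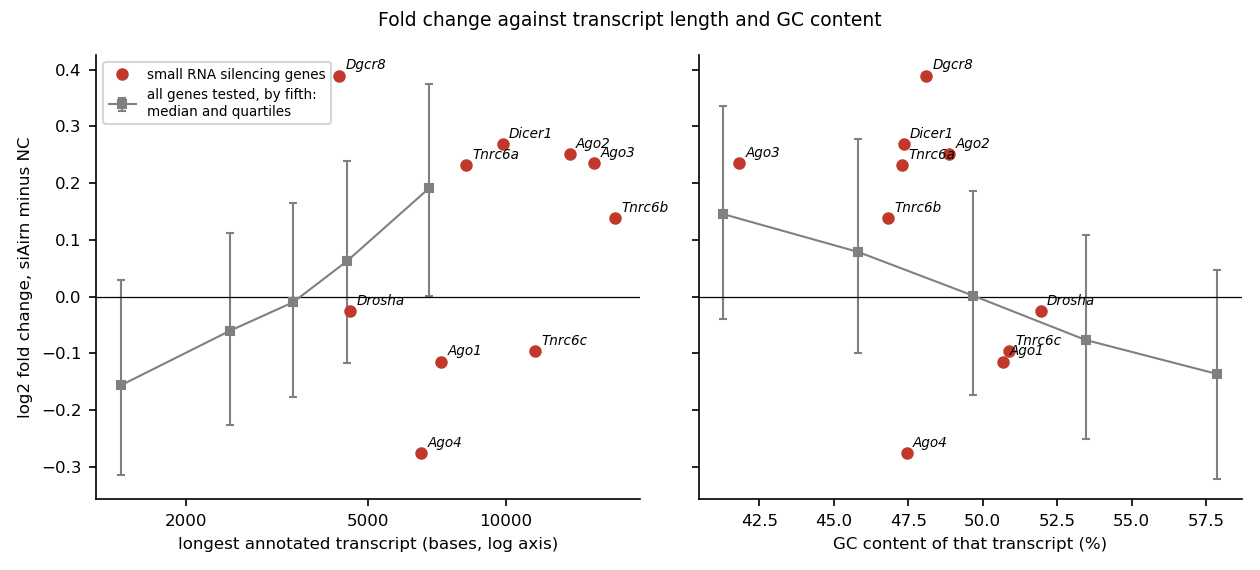
Log2 fold change, siAirn minus NC, against the longest annotated transcript (left, bases on a log axis) and its GC content (right, percent), for the 10 silencing genes (red) and for all genes tested in 5 bins (grey, median with quartiles). The grey medians run from -0.16 to 0.19 with length and from 0.15 to -0.14 with GC content.

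A fit that corrected each library for GC content and length was therefore set beside the values above. *Dgcr8* kept a log2 fold change of 0.33 (adjusted p = 0.0294 by edgeR). *Dicer1* went to 0.01 (adjusted p = 0.92), *Tnrc6a* to 0.01 (adjusted p = 0.961) and *Ago2* to -0.02 (adjusted p = 0.868). *Ago3* (-0.13) and *Tnrc6b* (-0.19) turned negative without being called. *Ago1*, at -0.25, was called lower (adjusted p = 0.0489), and *Tnrc6c* was at -0.31 (adjusted p = 0.0745). *Drosha* was at -0.02 in this fit as well, and *Ago4* at -0.46 (adjusted p = 0.164). The median of the 10 was then -0.08. With length alone the median was also -0.08 and with GC content alone 0.09, and *Dgcr8* was called higher in both. Length alone also gave lower calls for *Ago1* (-0.30, adjusted p = 0.0269 by edgeR) and *Tnrc6c* (-0.37, adjusted p = 0.0408). Whether the trend with length lies in the cells or in the libraries was not tested.

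The proteins that work beside these genes were described by lists. Of 22 symbols listed as partners in microRNA processing 19 were found in the data and 18 were tested. Of these 3 were called, all higher (median log2 fold change 0.07). The share is near the 16.8% of all genes called in either direction, of which 8.27% were called higher. *Xpo5*, which exports the hairpin from the nucleus, had 55.2 and 55.7 CPM in NC and 71.3 and 75.3 in siAirn (0.40, SE 0.07, adjusted p = 0.0132 by edgeR). *Ddx17*, a helicase that works with Microprocessor, rose by 0.29 on the log2 scale (adjusted p = 0.0258), and *Tut4*, which adds uridines to precursor RNA, by 0.28 (adjusted p = 0.0391). The call of *Xpo5* held in 15 of 18 alternatives, that of *Ddx17* in 11 and that of *Tut4* in 5. After correction for GC content and length *Xpo5* was at 0.35 and called, *Ddx17* at 0.24 (adjusted p = 0.051) and *Tut4* at 0.07 (adjusted p = 0.532).

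Of 24 listed symbols of Argonaute loading and turnover 23 were found in the data, and all 23 were tested. None was called (median 0.02, 1 called by DESeq2), beside 16.8% of all genes. At an unadjusted p under 0.05 by edgeR the count was 5 of 23, beside 34% of all genes. Their most abundant gene, *Hspa8*, a chaperone that helps load Argonaute, had 2644 and 2610 CPM in NC and 2481 and 2486 in siAirn (-0.08, adjusted p = 0.336). Of 31 listed symbols of deadenylation, decapping and decay, the steps that GW182 proteins set off, 30 were found in the data. All 30 were tested and 6 were called, 5 higher and 1 lower (median 0.12), beside 16.8% of all genes. The helicase *Ddx6* rose by 0.39 (adjusted p = 0.0131), the CCR4-NOT scaffold *Cnot1* by 0.38 (adjusted p = 0.0131), the 5′ exonuclease *Xrn1* by 0.30 (adjusted p = 0.0464), and the decapping genes *Dcp2* and *Dcp1a* by 0.30 and 0.29 (adjusted p = 0.0419 and 0.0455). *Parn*, a poly(A)-specific ribonuclease, was counted 292 and 343 times in NC and 224 and 206 times in siAirn, a log2 fold change of -0.58 (SE 0.11, adjusted p = 0.0202 by edgeR). After correction for GC content and length *Parn* alone of these 6 was called (-0.58), and the 5 higher genes lost their calls, with *Ddx6* at 0.19, *Dcp1a* at 0.17, *Cnot1* at 0.13, *Dcp2* at 0.02 and *Xrn1* at -0.02.

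The germline branch of the family was near its detection limit. Of 17 listed genes of the PIWI pathway 3 were tested, and by edgeR none was called and none had an unadjusted p under 0.05. DESeq2 gave no adjusted p for any of the 3. *Piwil2*, a PIWI-class Argonaute of the germline, was counted 18 and 22 times in NC and 16 and 24 times in siAirn (log2 fold change -0.02, SE 0.39). Of 20 listed symbols of sensors of double-stranded RNA, which can react to a transfected duplex, 19 were found in the data and 18 were tested. Of these 3 were called, all lower (median -0.11). The share is again near the 16.8% of all genes called in either direction, of which 8.56% were called lower. *Zbp1* was at -0.54 (adjusted p = 0.0127 by edgeR), *Oas3* at -0.41 (adjusted p = 0.0348) and *Oasl1* at -0.37 (adjusted p = 0.0463). Without NC replicate 1 *Oasl1* was at -0.23 and not called, and after correction for GC content and length it was at -0.20 and *Zbp1* alone of the 3 was called (-0.50). All 4 libraries had received an siRNA, so no untransfected level is at hand.

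Transcripts that host microRNAs show the input of the machinery, as far as a host mRNA stands for its microRNA. Of 23 listed hosts 9 were in the table and tested, 3 were called lower and 1 higher (median -0.18), beside 16.8% of all genes in either direction. *Egfl7*, an endothelial gene, had 1349 and 1225 CPM in NC and 933.3 and 769.7 in siAirn (log2 fold change -0.60, SE 0.10, adjusted p = 0.0137 by edgeR). It is also among the pan-endothelial markers given above. *Ctdspl* was at -0.41 (adjusted p = 0.0487), a call that held in 6 of 18 alternatives, and without NC replicate 2 it was at -0.24 (adjusted p = 0.219). *Srebf2*, a regulator of cholesterol synthesis, was at -0.28 (adjusted p = 0.0353), a call that held in 8 of 18. *Mcm7*, a DNA replication gene, was higher by 0.31 (adjusted p = 0.0286). That call held in 12 of 18 alternatives and was lost in DESeq2 and when any 1 library was left out (adjusted p from 0.06 to 0.167 by edgeR). After correction for GC content and length *Mcm7* alone of the 4 was called (0.41), and *Egfl7* was at -0.40 (adjusted p = 0.0667). The mature strands below, also from RefSeq (GRCm38.p6), are those for which these 4 hosts are best known, with seeds in capitals.
mmu-miR-126a-3p, in *Egfl7* (chr2:26591402-26591423): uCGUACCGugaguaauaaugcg
mmu-miR-26a-5p, in *Ctdspl* (chr9:119031811-119031832): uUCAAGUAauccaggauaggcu
mmu-miR-33-5p, in *Srebf2* (chr15:82198127-82198147): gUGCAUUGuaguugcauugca
mmu-miR-93-5p, in *Mcm7* (chr5:138165574-138165596): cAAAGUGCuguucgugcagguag
mmu-miR-106b-5p, in *Mcm7* (chr5:138165787-138165807): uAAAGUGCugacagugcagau
mmu-miR-25-3p, in *Mcm7* (chr5:138165332-138165353): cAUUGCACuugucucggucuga

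The miR-93 and miR-106b strands share the seed AAAGUGC. The mature miR-26a-5p is also encoded in *Ctdsp2*, so *Ctdspl* is not its single source. None of these microRNAs was measured in these libraries.

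The promoters of the Microprocessor genes are shown because *Dgcr8* was called and *Drosha* was not. They are the 250 bases upstream of the annotated start in RefSeq (GRCm38.p6), 5′ to 3′ on the strand of the gene, at chr16:18289169-18289418 for *Dgcr8* (minus strand) and chr15:12824565-12824814 for *Drosha* (plus strand). Capitals mark a CCAAT box, whose letters are CCAAT, or a GC box, whose letters are GGGCGG, each read on either strand.
Dgcr8 promoter: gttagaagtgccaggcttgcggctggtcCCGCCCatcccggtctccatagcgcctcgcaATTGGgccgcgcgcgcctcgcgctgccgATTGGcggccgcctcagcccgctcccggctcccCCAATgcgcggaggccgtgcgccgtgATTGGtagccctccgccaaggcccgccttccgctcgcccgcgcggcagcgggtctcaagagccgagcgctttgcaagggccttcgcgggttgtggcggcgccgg
Drosha promoter: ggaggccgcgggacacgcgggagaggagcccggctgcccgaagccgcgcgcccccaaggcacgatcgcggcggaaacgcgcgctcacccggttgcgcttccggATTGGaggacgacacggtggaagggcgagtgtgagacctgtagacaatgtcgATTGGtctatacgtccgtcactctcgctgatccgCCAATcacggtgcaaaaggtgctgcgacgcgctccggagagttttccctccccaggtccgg

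Both windows hold CCAAT boxes, 4 in *Dgcr8* and 3 in *Drosha*, and the *Dgcr8* window also 1 GC box. Of the 10 genes 9 have a promoter in the table. Over the window that runs 50 bases past the start, 5 of these 9 hold a CCAAT box on either strand beside 42.2% of 13380 genes, and 6 of 9 a GC box beside 60.3%. An E-box (CACGTG) was found in 1 of 9, *Tnrc6b*, beside 10.4% of genes. The letters of a CRE, TGACGTCA, were in none of the 9 beside 3.05% of genes. Those of a TATA box, TATAAA, were likewise in none beside 10.7%. *Tnrc6a* and *Tnrc6c* had no match to any motif searched. These matches are of letters only.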

How the data were processed

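RNA-seq of 4 LSEC libraries (2 NC, 2 siAirn) was analysed, single-end with 50-base reads, grouped by the labels. Of the authors' estimated counts, which carry no normalization, 76.5% to 76.8% per library are exactly whole as written, zeros included. The authors' other values per library have no named unit and were read as FPKM, since count over library total and transcript length gives them. The submitters' processing notes name RSEM, Bowtie2, BWA and hg19, a human build, without roles. No coordinates were therefore taken from the table, and those printed are from GENCODE M21 and RefSeq.

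Rounded counts were fitted with edgeR 4.0.16 under R 4.3.3 (TMM factors 0.985 to 1.02, filterByExpr, quasi-likelihood test, Benjamini-Hochberg adjustment over 13628 genes). CPM values use TMM-scaled totals. Standard errors are those implied by the F statistic. Replicates differed by more than counting noise (chi-square per degree of freedom of 6.37 in NC and 8.51 in siAirn), and the common biological coefficient of variation was 0.0754. GC content and length are those of the longest GENCODE transcript, known for 12948 tested genes (95.0%), and were corrected by natural splines with 5 degrees of freedom per library. The alternatives, 18 in all, also used DESeq2 1.42.0 and limma 3.58.1 on log2(FPKM + 1) or log2(FPKM + 0.1), keeping genes whose mean FPKM reached 1 unless unfiltered. GC content alone and length alone were added after seeing the data. The main fit and part of the alternatives were run on simulated counts with a single coefficient of variation of 0.075. Those counts held no trend with GC content or length and no pairing of replicates. The corrections for these were therefore not tested by them.

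The members and lists were chosen with earlier results of these data known. Some lists give a gene under an older symbol as well, such as *Rqcd1* for *Cnot9*, so the numbers listed are of symbols. Named genes are the 10 members, *Airn*, and up to 6 genes with an adjusted p under 0.05 of each pathway list, largest change first, or its most abundant tested gene where none was called. *Trmt2a* was named after its values were seen, for its overlap with *Dgcr8*. Also outside this rule, *Alb* was named for its part in the hepatocyte sum and *Ctdsp2* as another source of miR-26a-5p. *Fga* and *Cd79b* were named because only siAirn gave them enough counts to be tested. The group means deposited by the authors were not used.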

Additional observations from a re-analysis of the deposited data

How the results depend on the processing

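With 2 libraries per group, a fit that leaves out a library assumes that the lone sample varies like the other group. The 10 silencing genes had 0 calls by the study's threshold in all 18 alternatives. The PIWI list had no call at an adjusted p under 0.05 among those of its genes that an alternative gave one for, and DESeq2 and both filtered limma fits gave one for none of them. The call of *Dgcr8* held in 15 of 18 alternatives. Causes of the shifts below were not tested. Counts of 5 or fewer members or list genes carry little weight, and *Ago4*, *Airn* and *Piwil2* are limited by depth.

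Each setting below gives, where it moved by over 1.5 times or by over the spread between replicates, the number of silencing genes called higher (3 in the report) and lower (0), their median log2 fold change (0.19), all genes called (2294), and the calls of the processing partners (3), loading (0), decay (6), host (4) and sensor (3) lists. Upper-quartile factors gave 5 sensor calls, with 2 members called. Library totals gave a median of 0.22, and 2 loading and 2 host calls. No filter gave 1 member higher and 3 decay calls. The likelihood-ratio test gave 6 sensor calls. DESeq2 gave 1 member higher, 1 loading, 3 decay and 2 host calls, and 1802 genes, with 2114 adjusted p-values missing. limma on log2(FPKM + 1) gave 1 member higher, a median of 0.21, and 1 partner, 1 loading, 3 decay, 2 host and 1 sensor call. With + 0.1 it gave 2 members higher, a median of 0.26, and 1 partner, 1 loading, 3 decay, 2 host and 1 sensor call. Unfiltered limma called 0 members, 0 list genes and 0 genes in all (4418 at an unadjusted p under 0.05), with a median of 0.21.

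GC content and length gave 1 member higher and 1 lower, a median of -0.076, 1007 genes, and 1 loading, 1 decay, 1 host and 1 sensor call. GC content alone, added after seeing the data, gave 1 member higher, a median of 0.090, 4 decay, 2 host and 1 sensor call. Length alone, added likewise, gave 1 higher and 2 lower, a median of -0.077, and 5 loading and 3 decay calls.

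The replicate block gave 5 members higher (*Ago2* and *Ago3* in addition), 4841 genes, 8 partner, 5 loading, 14 decay, 7 host and 7 sensor calls. With GC content and length it gave 1 higher and 4 lower (*Ago1*, *Ago4*, *Tnrc6b* and *Tnrc6c*), a median of -0.076, 4110 genes, and 5 partner, 4 loading, 10 decay and 7 sensor calls. The deviations of same-numbered libraries correlated at 0.21, but the 2 pairs share only a number, so the pairing is not established.

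Leaving out 1 library at a time gave 0 to 2 members higher, a median of 0.16 to 0.20, 0 to 2332 genes called (35 without NC replicate 1, 0 without NC replicate 2, at which 3075 had an unadjusted p under 0.05, and 1384 without siAirn replicate 2), and 0 to 2 partner, 0 to 4 decay, 0 to 3 host and 0 to 3 sensor calls.

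Signs turned as follows, in log2 fold change. Under GC content and length, the same with the replicate block, and length alone, *Ago2* went to -0.0225, -0.0239 and -0.0468, *Ago3* to -0.129, -0.129 and -0.0739, and *Tnrc6b* to -0.186, -0.185 and -0.181. In the former pair of fits *Xrn1* went to -0.0207 and -0.0205. *Drosha* turned to 0.0106 with library totals, 0.0132, 0.0141 and 0.0132 in the limma fits (+ 1, + 0.1, unfiltered) and 0.0272 with GC content alone, and ranged from -0.108 without NC replicate 2 to 0.0568 without NC replicate 1. *Tnrc6c* turned to 0.0449, 0.0549 and 0.0449 in the limma fits and ranged from -0.221 to 0.0347 without these same libraries. *Piwil2* turned to 0.0173 with library totals and 0.0162 in unfiltered limma, and ranged from -0.356 without siAirn replicate 2 to 0.257 without siAirn replicate 1.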
